A study of Mus musculus with 8 samples.

Results

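Transcripts of 8 aquaporin genes (Aqp1, Aqp2, Aqp3, Aqp4, Aqp5, Aqp6, Aqp8 and Aqp11) were examined in RNA-seq libraries of mpkCCD cells, an established mouse line that models the principal cell of the cortical collecting duct of the kidney. The genes were taken by symbol from the deposited table of 55414 genes and joined by Ensembl identifier to the table of expected counts. Cells had received tolvaptan plus dDAVP in 4 libraries and dDAVP alone in 4 libraries. dDAVP is an agonist selective for the vasopressin V2 receptor, and tolvaptan is an antagonist of that receptor. The labels give the cell line and these treatments, so both groups carried the agonist. Growth on permeable supports with dDAVP, and a day with tolvaptan or its vehicle, are known only from the study's methods and not from the labels. The cells were a single subclone, picked in earlier work for high Aqp2 expression, of a line from mice carrying an SV40 large T transgene.

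Aquaporins are membrane channels that let water, and in some members glycerol or other small solutes, cross a cell. In principal cells of the collecting duct, vasopressin acts through the V2 receptor and cyclic AMP to move Aqp2 to the apical membrane and, over hours to days, to raise its transcription. Water that enters through Aqp2 leaves the cell through Aqp3 and Aqp4 in the basolateral membrane. Aqp1 belongs to the proximal tubule and the thin descending limb, and Aqp6 sits in intracellular vesicles of type A intercalated cells.

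The libraries held 41179670 to 49720488 expected counts with tolvaptan plus dDAVP and 46189118 to 56203831 with dDAVP alone. Olfactory and vomeronasal receptor genes, which kidney epithelium is not known to use in number, gave a floor for signal that need not be expression. The 2002 such genes together held 29.4 to 52.8 CPM (counts scaled to a common library total) in replicates 1 and 2 of the groups and 12.5 to 20.4 CPM in replicates 3 and 4, and genes with any count numbered 26291 to 29209 in replicates 1 and 2 and 22184 to 24165 in replicates 3 and 4. Separate cultures are not stated in the labels, and p-values therefore rest on library-to-library spread that could be technical. In such bulk libraries, fewer cells of a kind and less RNA per cell cannot be told apart. Of the 10 principal cell markers listed, which include the members Aqp2, Aqp3 and Aqp4, 9 passed the count filter. Among them were Avpr2 (the V2 receptor), at 322 TPM with tolvaptan and 319 TPM with dDAVP alone, and Fxyd4, at 644 and 667 TPM. Scnn1b, also among the 9, stood at only 0.52 to 1.05 TPM. The filter is a low bar, since Aqp1 passed it too. Kcnj1, the apical potassium channel, did not exceed 0.11 TPM in any library.

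Which aquaporins were expressed at all was asked first. Aqp2 dominated: it held more counts than any other gene in all 8 libraries, also ranked first by TPM (a level corrected for transcript length), and made up 99.2% to 99.3% of the summed TPM of the 8 genes in every library. Aqp5 was the only other member above 10 TPM. Aqp3, Aqp6 and Aqp4 stood at a few TPM and Aqp11 below 1 TPM. Aqp1 and Aqp8 lay around or below the 99th percentile of the receptor genes.

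The levels gave the following order. A member was called expressed where it had 10 or more counts in at least 4 libraries and, in every library, a TPM above the 99th percentile of the receptor genes, which lay between 0.1 and 0.22 TPM. By this rule 6 of the 8 members were expressed (Aqp2, Aqp5, Aqp3, Aqp6, Aqp4 and Aqp11). Aqp1 was detected but did not exceed that percentile in every library, and Aqp8 failed the count filter. Averaged over the 8 libraries, the TPM of Aqp2 was 146 times that of Aqp5, 1873 times that of Aqp3, 2087 times that of Aqp6, 4574 times that of Aqp4 and 23127 times that of Aqp11. The lowest Aqp2 value lay above the highest Aqp5 value, and the lowest Aqp5 value above the highest Aqp3 value. Aqp3 and Aqp6 overlapped, with 3.36 to 7.07 and 2.86 to 6.38 TPM over all libraries, while Aqp4 stayed below both at 1.40 to 2.59 TPM. Aqp11, at 0.18 to 0.78 TPM, overlapped Aqp1, at 0.07 to 0.25 TPM, and Aqp1 overlapped Aqp8.

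**Figure D1:**
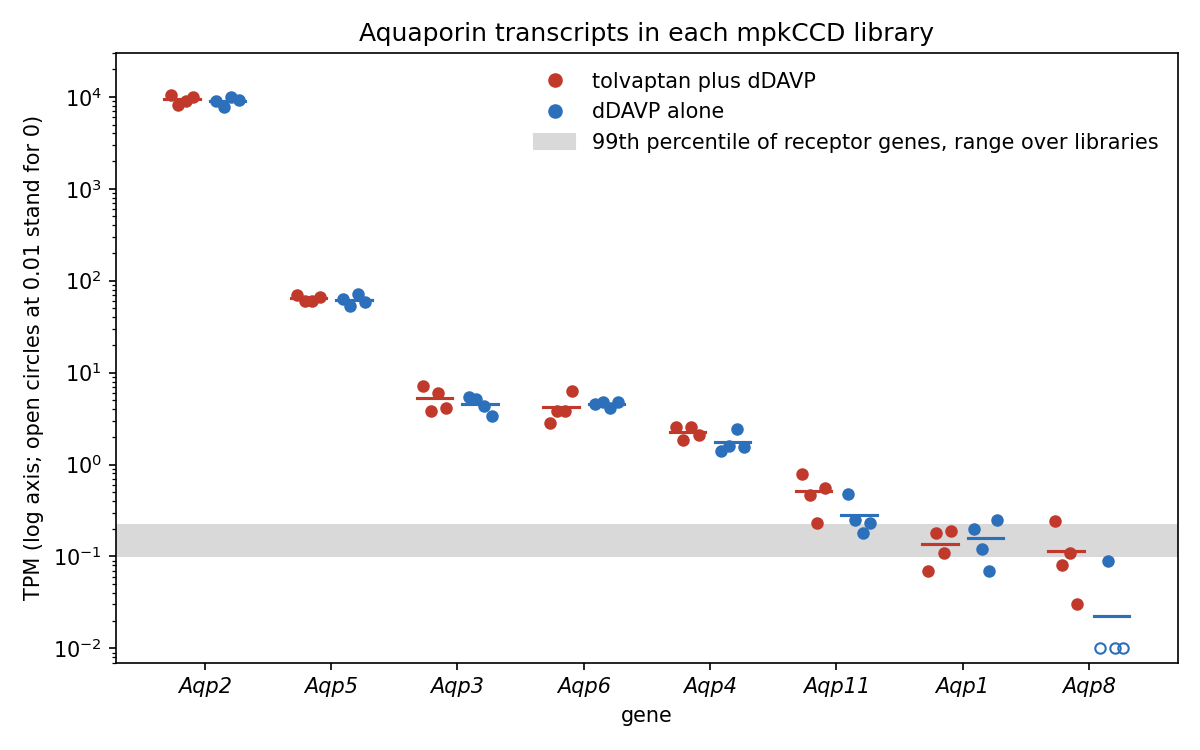
TPM of each aquaporin gene in each library, on a log axis, with tolvaptan plus dDAVP in red and dDAVP alone in blue; bars are group means, and open circles at the foot stand for 0. Aqp2 lies between 7771 and 10462 TPM, Aqp5 between 53.3 and 72.3 TPM, and Aqp1 and Aqp8 lie around the grey band, with single libraries just above it at 0.25 TPM for Aqp1 and 0.24 TPM for Aqp8; the band spans the 99th percentile of olfactory and vomeronasal receptor genes over the libraries.

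Aqp2, Aqp5 and Aqp6 are neighbours on mouse chromosome 15, in that order, with Faim2 before them and Racgap1 after them among protein-coding genes of the RefSeq annotation on GRCm38.p6. The windows around the annotated starts of Aqp2 and Aqp5 are shown because these adjacent genes differed in level by the factor given above and, as described further on, were correlated over the libraries. Each runs from 250 bases before to 50 after the RefSeq start, 5′ to 3′ on the plus strand of GRCm38.p6. Capitals mark TGACG, the core of the cyclic AMP response element, on either strand.

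Aqp2, chr15:99578806-99579105: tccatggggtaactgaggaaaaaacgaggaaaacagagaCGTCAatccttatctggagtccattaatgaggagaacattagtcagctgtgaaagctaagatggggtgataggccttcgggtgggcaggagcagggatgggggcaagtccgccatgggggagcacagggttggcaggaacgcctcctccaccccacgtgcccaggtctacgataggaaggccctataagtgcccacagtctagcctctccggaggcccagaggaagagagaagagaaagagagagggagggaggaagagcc

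Aqp5, chr15:99590778-99591077: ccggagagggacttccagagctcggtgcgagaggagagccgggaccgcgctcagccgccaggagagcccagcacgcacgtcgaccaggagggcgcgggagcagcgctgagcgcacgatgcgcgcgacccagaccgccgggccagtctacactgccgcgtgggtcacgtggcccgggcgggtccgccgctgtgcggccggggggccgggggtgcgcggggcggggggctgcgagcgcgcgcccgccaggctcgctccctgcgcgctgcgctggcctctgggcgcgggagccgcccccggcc

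The Aqp2 window held 1 TGACG core, on the opposite strand and starting 211 bases before the annotated start, and no full TGACGTCA. The Aqp5 window held neither. TGACG was present on either strand in 20.9% of 32544 windows of the same length, and TGACGTCA in 1.80%. Among the 7 members that the promoter table holds (Aqp4 was not among them), Aqp2 was the only one with the core. GATA, the core bound by Gata2 and Gata3, occurred 3 times in the Aqp2 window and not at all in that of Aqp5. It occurred 1 time each in the windows of Aqp3 and Aqp8 and not in those of Aqp1, Aqp6 and Aqp11. Of all windows, 57.7% had at least 1, and the share with 3 or more was not determined. The windows also differed in base composition, with 56.0% G and C for Aqp2 and 79.7% for Aqp5, which was higher than in 98.9% of all windows. These matches describe letters and do not show that a factor was bound.

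The main comparison asked whether adding the V2 receptor antagonist to the agonist changed any aquaporin transcript. No aquaporin gene passed. The edgeR quasi-likelihood test covered 14772 genes, of which 59 (0.399%) had a Benjamini-Hochberg adjusted p under 0.05. Of the 7 members tested 0 rose and 0 fell. With DESeq2 and in every other alternative fit the number was also 0. DESeq2 gave no adjusted p for Aqp1 and Aqp11, and some fits to fewer libraries did not test Aqp1, so these members could not be called there. Before adjustment, 1652 genes over the whole table and 1 member, Aqp4, had p under 0.05. The median log2 fold change of the 7 members was 0.04, against -0.0048 over all genes tested.

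Aqp2 (ENSMUSG00000023013) stood at 10462, 8204, 9050 and 10041 TPM in replicates 1 to 4 with tolvaptan plus dDAVP, against 9013, 7771, 9873 and 9130 TPM in replicates 1 to 4 with dDAVP alone. The groups overlapped over most of their range, and replicate 2 was the lowest library in each. The log2 fold change was 0.05 with a standard error of 0.08, which is a 1.04-fold difference with a 95% interval from 0.921 to 1.16 (edgeR adjusted p = 0.857). Each library held 252330 to 356212 Aqp2 counts, so counting error was about 0.182% of the value, while the coefficient of variation between libraries was 10.7% with tolvaptan and 9.74% with dDAVP alone. The width of the interval was therefore set by the spread between libraries and not by depth. Within replicates 1 and 2 the log2 fold change was 0.11, and within replicates 3 and 4 it was 0.0027. Without dDAVP replicate 2 it was -0.015. The study reported Aqp2 among the transcripts lowered by tolvaptan, a fall that the values here do not show. Its cutoffs were on fold change and P, and differ from the adjusted p used here. The study also names another data deposit than the one used here, and whether both hold the same libraries was not checked. With DESeq2, the study's tool, the log2 fold change here was 0.05 (DESeq2 adjusted p = 0.884). The reason for the difference was not tested.

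Aqp5 (ENSMUSG00000044217), best known from secretory glands and lung, stood at 69.8, 59.9, 59.7 and 66.8 TPM with tolvaptan plus dDAVP, against 63.7, 53.3, 72.3 and 58.5 TPM with dDAVP alone. The dDAVP libraries held both the lowest and the highest value. The log2 fold change was 0.02 with a standard error of 0.08, and the interval of the fold ran from 0.904 to 1.14 (edgeR adjusted p = 0.955).

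Aqp4 (ENSMUSG00000024411), the basolateral water channel of principal cells and of astrocytes, had the smallest unadjusted p among the members. Its counts came to 3.69, 2.71, 3.36 and 3.26 CPM with tolvaptan plus dDAVP, against 2.62, 2.23, 2.65 and 2.48 CPM with dDAVP alone. On this scale every tolvaptan library lay above every dDAVP library, though by little for tolvaptan replicate 2. Normalized log2 CPM failed to overlap for this member alone among the 7 tested, and for 7.76% of all genes tested. The log2 fold change was 0.38 with a standard error of 0.13, a 1.30-fold difference with an interval from 1.06 to 1.59, and it did not pass adjustment over all genes (edgeR adjusted p = 0.300). It was 0.41 within replicates 1 and 2 and 0.35 within replicates 3 and 4, positive in all 19 alternative fits that tested it, and its adjusted p ran from 0.203 with DESeq2 to 0.665. These fits reuse the same 8 libraries. With no overlap in CPM, the sign of the fits to counts was all but fixed beforehand and is not separate support. In TPM the groups overlapped, at 2.59, 1.86, 2.58 and 2.07 TPM with tolvaptan plus dDAVP and 1.40, 1.6, 2.44 and 1.54 TPM with dDAVP alone. Each library held 103 to 167 counts of Aqp4, for which counting error alone is about 8.57%. The 6 stromal and immune genes listed also did not overlap between the groups when summed. They came to 5.96 to 7.43 TPM with tolvaptan and 4.54 to 5.87 TPM with dDAVP alone. Most of this was Cd68, a macrophage marker, at a mean of 6.46 and 4.91 TPM. The immune genes Ptprc and Lyz2 did not exceed 0.26 and 0.13 TPM in any library, and the stromal gene Col1a1 did not exceed 0.48 TPM. Of the 2 genes tested, 0 passed, and the part of these 6 genes in the Aqp4 values was not tested.

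Aqp3 (ENSMUSG00000028435), the basolateral channel for water and glycerol, stood at 2.84, 2.55, 3.10 and 2.12 CPM with tolvaptan plus dDAVP, against 2.54, 2.58, 2.78 and 2.42 CPM with dDAVP alone. The tolvaptan libraries lay on both sides of the narrower dDAVP range. Its log2 fold change was 0.04 with a standard error of 0.14 and an interval from -0.27 to 0.35 (edgeR adjusted p = 0.95). Aqp3 is commonly held to be abundant in native principal cells, whereas here it had 95 to 154 counts in a library.

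Aqp6 (ENSMUSG00000043144) stood at 2.33, 3.19, 3.26 and 5.18 CPM with tolvaptan plus dDAVP, against 3.91, 4.09, 3.51 and 3.99 CPM with dDAVP alone. The tolvaptan libraries were the more variable, with a coefficient of variation in TPM of 35.6% against 6.35%, and included both the lowest and the highest value. The log2 fold change was -0.15 with a standard error of 0.20 (edgeR adjusted p = 0.822), and single libraries decided its size: it was -0.40 without tolvaptan replicate 4 (adjusted p = 0.381) and -0.0065 without tolvaptan replicate 1. Within replicates 1 and 2 it was -0.51 (edgeR adjusted p = 0.389), and within replicates 3 and 4 it was 0.15 (adjusted p = 0.892); the difference between these pairs was not tested. Aqp6 marks intercalated cells in the kidney. Of the other intercalated cell genes listed, Slc4a1, Slc26a4, Foxi1, Atp6v1g3 and Atp6v0d2 stayed at or below 0.14 TPM in every library. Atp6v1b1, on the same list, stood at 30.9 to 112 TPM. Summed over all 8 listed intercalated cell genes, the level ran from 589 to 612 TPM with tolvaptan and from 579 to 703 TPM with dDAVP alone, nearly all of it from carbonic anhydrase 2 (Car2) and Atp6v1b1.

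Aqp11 (ENSMUSG00000042797), a channel of the endoplasmic reticulum whose loss gives polycystic kidneys in mice, had 28, 27, 24 and 21 counts with tolvaptan plus dDAVP, against 23, 25, 17 and 17 counts with dDAVP alone. The counts of the groups overlapped. The log2 fold change was 0.39 with a standard error of 0.26, and the fold interval, from 0.889 to 1.94, includes no change (edgeR adjusted p = 0.630). Each library held 17 to 28 counts of Aqp11, for which counting error alone is about 21.0%.

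**Figure D2:**
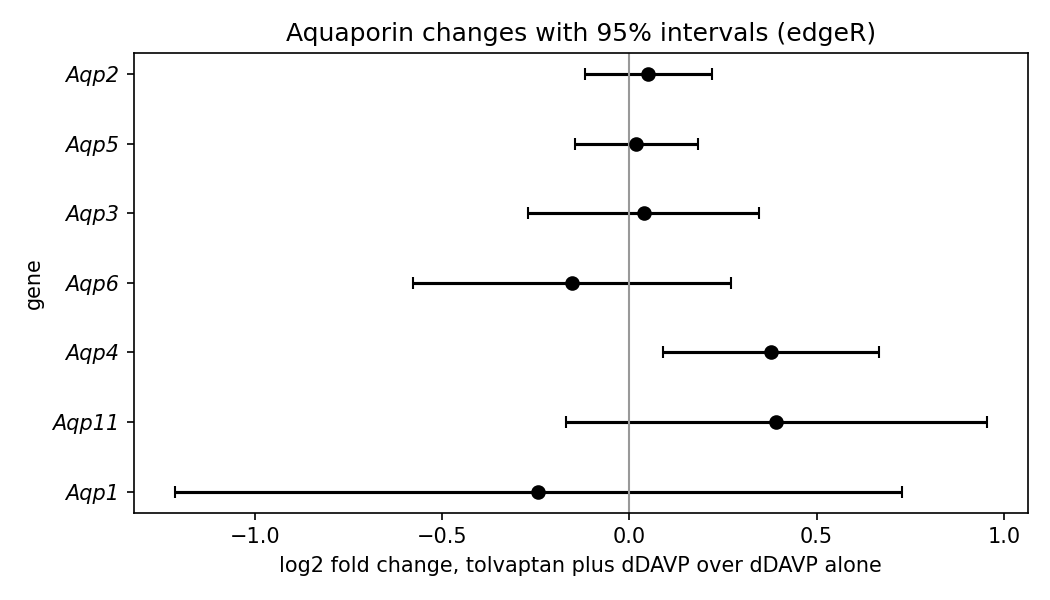
Log2 fold change of the 7 tested aquaporin genes, tolvaptan plus dDAVP over dDAVP alone, with 95% intervals from the edgeR fit, ordered from the most to the least abundant. The intervals of Aqp2 and Aqp5 are narrow and include 0, that of Aqp4 runs from 0.09 to 0.67 before any adjustment, and that of Aqp1 is the widest of the 7.

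Aqp1 (ENSMUSG00000004655) had 4 to 12 counts in a library with tolvaptan plus dDAVP and 5 to 17 counts with dDAVP alone, and its TPM exceeded the 99th percentile of the receptor genes in 4 of 8 libraries. Its log2 fold change was -0.24 with an interval from -1.22 to 0.73. The other proximal tubule genes listed were also near 0, with Slc34a1 at no more than 0.19 TPM and Slc5a2 at no more than 0.22 TPM, except for the endocytic receptor Lrp2, at 9.72 TPM with tolvaptan and 8.89 TPM with dDAVP alone. Aqp8 (ENSMUSG00000030762), a channel best known from liver, pancreas, testis and colon, had 5, 2, 3 and 1 counts with tolvaptan plus dDAVP, against 0, 3, 0 and 0 counts with dDAVP alone. A count of 0 allows up to 3 counts, which was 0.0534 to 0.0642 CPM in those 3 dDAVP libraries, and 3 of the 4 tolvaptan libraries also had no more than 3 counts. An edgeR fit without the count filter gave an adjusted p of 0.701 for Aqp8. This floor covers counting error only.

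**Figure D3:**
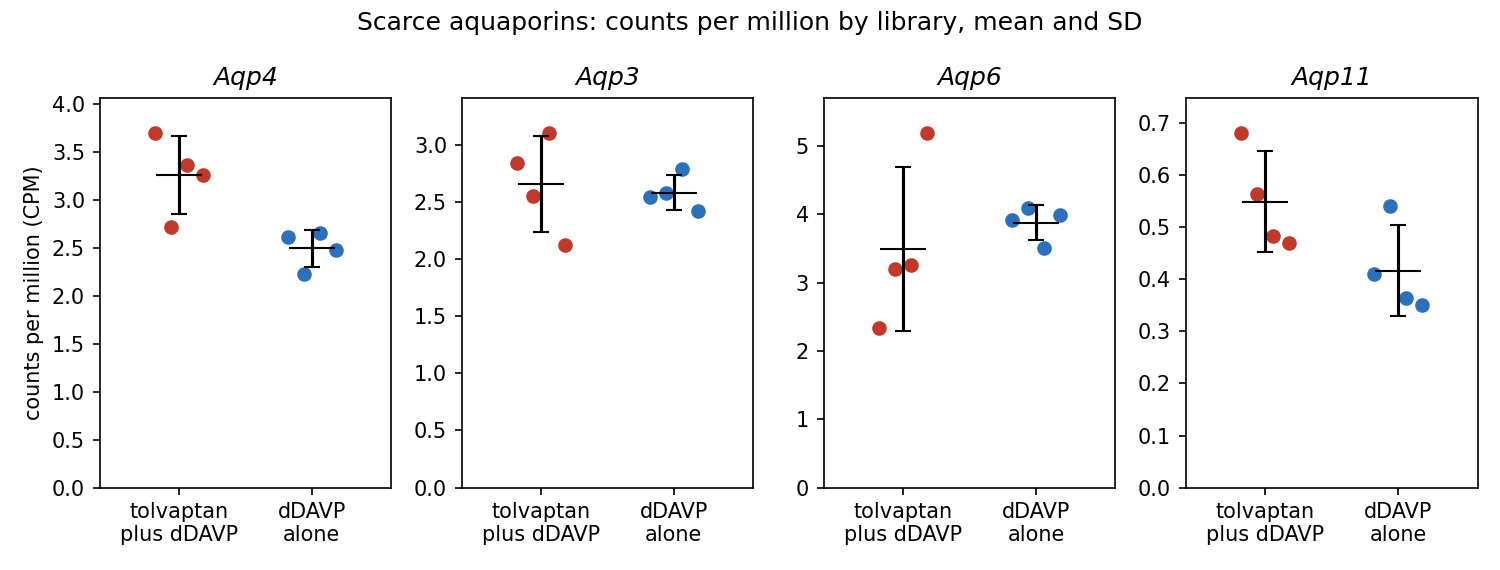
CPM of Aqp4, Aqp3, Aqp6 and Aqp11 in each library (points), with the group mean and SD in black, tolvaptan plus dDAVP left of dDAVP alone; each axis starts at 0. Only in the Aqp4 panel do the groups not overlap, with 2.71 to 3.69 CPM against 2.23 to 2.65 CPM.

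The remaining mouse aquaporins in the tables were also scarce. Mip, the lens channel, passed the count filter at 0.13 to 0.31 TPM and did not pass the test (log2 fold change 0.23, edgeR adjusted p = 0.862). Aqp7 and Aqp9, which carry glycerol in fat and liver, and Aqp12, known from pancreatic acinar cells, had at most 3 counts in any library.

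For some members the TPM followed the transcript forms to which RSEM assigned the reads, since the length behind a TPM can be read off by dividing CPM by TPM. Relative to Aqp2, which has 1 annotated transcript in GENCODE M21, the implied length of Aqp6 varied 1.06-fold between the lowest and the highest library and that of Aqp1 1.08-fold. It varied 1.15-fold for Aqp5, 1.71-fold for Aqp3, 1.72-fold for Aqp4 and 2.57-fold for Aqp11. The last 3 genes have 2, 11 and 5 annotated transcripts, which differ in length by 4.40, 11.2 and 28.8 times. Aqp5 has 6 annotated transcripts that differ by 4.06 times, near the range of Aqp3, yet its implied length varied little. Aqp3, for example, had 117 counts in tolvaptan replicate 1, at 7.07 TPM, and also 117 counts in dDAVP replicate 4, at 3.36 TPM. For Aqp11 the ratio of mean TPM, tolvaptan over dDAVP alone, was 1.79, against a fold of 1.31 from counts. For Aqp4, dDAVP replicate 3 had the shortest implied length, at 1.54 times that of Aqp2, and it was the library whose TPM overlapped the tolvaptan range. Whether different transcripts were present or short reads were assigned differently was not tested. M21 is not the annotation used for the files and serves here only for the number and length of transcripts. In it no exon of the 8 genes overlaps another gene on either strand.

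**Figure D4:**
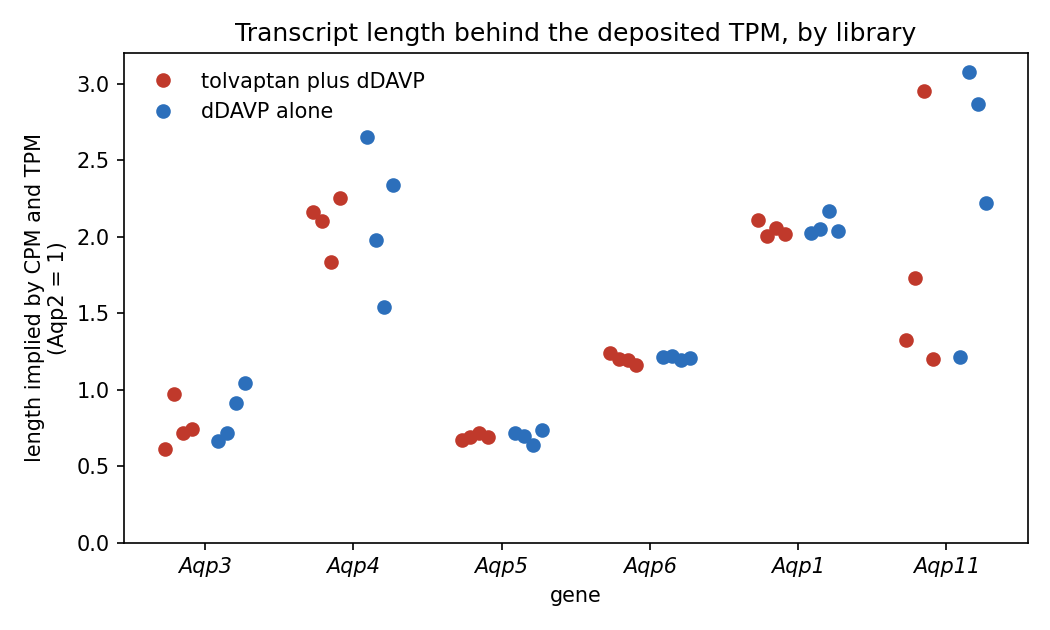
Transcript length implied by CPM and TPM, relative to Aqp2 in the same library, for the 6 other tested members (points are libraries; red, tolvaptan plus dDAVP; blue, dDAVP alone). Aqp5, Aqp6 and Aqp1 sit in tight groups, while Aqp3, Aqp4 and Aqp11 spread 1.71-, 1.72- and 2.57-fold.

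Aqp2 and Aqp5 were correlated from library to library, less closely without the libraries numbered 2. The Pearson correlation of their log2 CPM was 0.90 and the Spearman correlation 0.83 over the 8 libraries. Within the groups it was 0.96 over the tolvaptan libraries and 0.94 over the dDAVP libraries, each of which includes a replicate 2. Without the 2 libraries farthest from the median of Aqp2, which were tolvaptan replicate 2 and dDAVP replicate 2, it was 0.57 over 6 libraries. Those libraries were the lowest in Aqp2. Leaving out extremes narrows the range of Aqp2 and so lowers a correlation, and how far the likeness rests on those libraries cannot be told from this. Among 9313 genes with a maximum TPM above 10, Aqp5 was ninth in likeness to Aqp2, with 0.0966% of genes at or above its correlation. The points share library preparation and depth, and the correlation is given as a description. Aqp5 reached 6.67, 7.31, 6.60 and 6.65 TPM per 1000 TPM of Aqp2 with tolvaptan plus dDAVP, against 7.07, 6.86, 7.32 and 6.41 with dDAVP alone. This ratio was 6.81 ± 0.334 with tolvaptan and 6.91 ± 0.385 with dDAVP alone (SD, n = 4 each), which did not pass an exact two-sided permutation test over 70 splits (p = 0.657, where the smallest possible p is 0.0286).

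**Figure D5:**
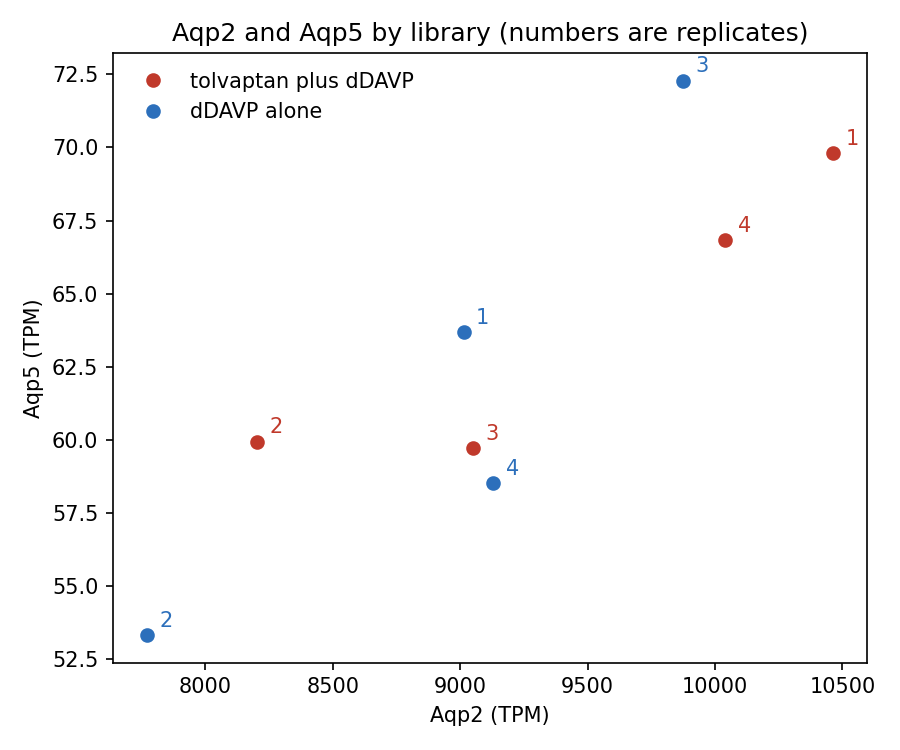
TPM of Aqp5 against TPM of Aqp2 in each library, with the replicate number beside each point (red, tolvaptan plus dDAVP; blue, dDAVP alone); the axes do not start at 0. The lowest point is dDAVP replicate 2, at 7771 TPM of Aqp2 and 53.3 TPM of Aqp5, and the points of both groups are intermixed.

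For the adjacent genes the values were lower. The correlation with Aqp2 was -0.07 for Aqp6, -0.19 for Faim2, an inhibitor of Fas-mediated death known from neurons, and -0.47 for Racgap1, which acts in cytokinesis. The level was 1.03 TPM with tolvaptan and 1.19 TPM with dDAVP alone for Faim2, and 148 and 159 TPM for Racgap1. None of the genes of the cluster or its flanks passed the test of the difference between groups (edgeR adjusted p from 0.565 to 0.955). Among the other members, over the 8 libraries, Aqp4 correlated with Aqp2 at 0.66 and with Aqp5 at 0.51, and Aqp3 with Aqp6 at -0.78. Within the groups, Aqp4 correlated with Aqp2 at 0.85 over the tolvaptan libraries and 0.96 over the dDAVP libraries. With Aqp5 the values were 0.66 and 0.997. A close correlation with Aqp2 within the groups was therefore not particular to the adjacent gene Aqp5.

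The genes most like each expressed member over the 8 libraries were as follows, with no p given. For Aqp2 they were Idh1, which encodes cytosolic isocitrate dehydrogenase (r = 0.95), Dglucy (0.95) and Dcxr, a carbonyl reductase (0.92). For Aqp5 they were Nudt19 (0.97), the endocytic protein gene Reps1 (0.96) and Terf2ip (0.95), and for Aqp4 Zbtb9 (0.97), Dalrd3 (0.97) and Bcat1, a transaminase of branched-chain amino acids (0.97). For Aqp3 they were Zfp322a (0.92), Chpt1 (0.91) and Eif1a (0.91), for Aqp6 Lzts3 (0.96), Pqbp1 (0.96) and 2310022A10Rik (0.94), and for Aqp11 Gm49759 (0.97), Cyb561d1 (0.97) and Spin1 (0.96). None of these 18 genes passed the test between groups, the lowest edgeR adjusted p being 0.0793 for Bcat1.

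Genes known to act on Aqp2 were then examined. Of 20 tested genes of a list of 22 transcription regulators of Aqp2, 0 rose and 0 fell, against 0.183% of all genes tested that rose and 0.217% that fell, with a median log2 fold change of -0.04. Above 10 TPM, the regulators of largest change were Fos, at 0.29 with a standard error of 0.73 (edgeR adjusted p = 0.922), and the epithelial factor Elf3, at -0.23 with a standard error of 0.07 (adjusted p = 0.210). Of 34 genes of Aqp2 trafficking and turnover, 0 rose and 1 fell, with a median of -0.02. The gene that fell was Hspa8, which encodes the heat shock cognate protein known to bind Aqp2 and to serve clathrin-mediated endocytosis. Hspa8 stood at 400, 458, 422 and 470 TPM with tolvaptan plus dDAVP, against 629, 580, 575 and 644 TPM with dDAVP alone, and the groups did not overlap. Its log2 fold change was -0.39 with a standard error of 0.06 (edgeR adjusted p = 0.0123). The fold kept its size but the call was lost without dDAVP replicate 1 (-0.37, edgeR adjusted p = 0.0666), with the replicate block (-0.39, adjusted p = 0.0652), within replicates 1 and 2 (-0.41, adjusted p = 0.306) and within replicates 3 and 4 (-0.36, adjusted p = 0.0871). Of 9 tested genes of osmotic response and urea transport, 0 rose and 0 fell. The largest among those above 10 TPM were Slc5a3, the inositol transporter, at 0.15 and the amino acid transporter Slc38a2 at 0.13. The study listed Slc5a3 and Fxyd4, like Aqp2, among transcripts lowered by tolvaptan. Here neither passed, with Slc5a3 at 0.15 (edgeR adjusted p = 0.667) and Fxyd4 at -0.10 (edgeR adjusted p = 0.780). The reason was not tested.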

How the data were processed

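RNA-seq was made from mpkCCD cells in 8 libraries, 4 with tolvaptan plus dDAVP and 4 with dDAVP alone; groups and replicate numbers came from the sample titles. Per the labels, SMARTer cDNA was tagmented with a Nextera XT kit, which does not mark strand, and sequenced in pairs. The study aligned reads with STAR to an Ensembl mouse genome and quantified them with RSEM; the STAR and RSEM versions are not given in the sources used here. The authors deposited expected counts per gene without normalization and TPM values, which are scaled for length and library. Deposited columns with the authors' own fold changes, p-values and term enrichment were not used. The aquaporin genes and all gene lists were chosen with earlier results of these data known.

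After rounding of expected counts to integers, a minimum of 10 counts in 4 libraries left 14772 genes, which were tested in edgeR 4.0.16 under R 4.3.3 (TMM, quasi-likelihood, two-sided, group as sole term). P-values were adjusted by Benjamini-Hochberg over all genes tested and called below 0.05; DESeq2 was the study's own tool. Standard errors were derived by dividing log2 fold changes by the root of F. Log2 CPM used a prior count of 2. Intervals are 95%. The fits were tested on simulated counts. Alternatives were DESeq2 1.42.0, limma 3.58.1 on log2(TPM + 1) and log2(TPM + 0.1), other normalizations and filters, a replicate block, and fewer libraries. Named genes were the members, the other aquaporins, up to 4 called members of each list or else the 2 of largest change above 10 TPM, the 3 genes most correlated with each expressed member, and the flanking genes. No libraries agreed within sampling noise (smallest chi-square per degree of freedom 8.08). Promoter windows are from RefSeq, GRCm38.p6, with 7 of 8 members matched.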

Additional observations from a re-analysis of the deposited data

Results flagged for a closer look

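Within each group of 4 libraries, values standing apart by Dixon's 95% criterion were looked for in 34 groups of aquaporin values, and 3 were found. The criterion's rate of about 1 in 20 does not apply directly, since TPM and CPM of a gene come from the same counts. Of these, 2 were Aqp8 in dDAVP replicate 2, at 0.09 TPM and 0.0650 CPM, where the other dDAVP libraries had 0. Both rest on the same 3 counts, and beside values of 0 any value above 0 would have been flagged. The third value was the level of Aqp5 per 1000 TPM of Aqp2 in tolvaptan replicate 2, at 7.31 against 6.67 in the nearest tolvaptan library. That library lay within the range of the dDAVP libraries, which was 6.41 to 7.32.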

How the results depend on the processing

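The count of aquaporin genes called was 0 in all 20 alternatives, though not every member could be called in each. Over the whole table, where 59 genes were called, DESeq2 called 337 (138 fell, 199 rose), a fit without a filter 256 (128 fell, 128 rose), limma on log2(TPM + 1) 22 (19 fell, 3 rose) and limma on log2(TPM + 0.1) 28 (20 fell, 8 rose). Replicates 1 and 2 alone gave 4 and replicates 3 and 4 alone gave 29. Leaving out each library gave 20 to 82: 82 without tolvaptan replicate 1, 39 without tolvaptan 2, 43 without tolvaptan 3, 22 without tolvaptan 4, and 21, 20, 21 and 28 without dDAVP 1 to 4. With the replicate block 17 were called; deviations of same-numbered libraries correlated at -0.01, 0.03, 0.16 and -0.01, so pairing by number was not shown. The block changed no aquaporin call, and Hspa8 was lost with it (edgeR adjusted p = 0.0652). Values near 0 changed sign. Aqp2 leaving out each library ran from -0.015 (without dDAVP replicate 2) to 0.11, Aqp3 from -0.043 to 0.13, Aqp6 from -0.40 (without tolvaptan replicate 4) to -0.0065 (without tolvaptan replicate 1), and Aqp5 from -0.049 to 0.059, with Aqp5 at -0.0054 without tolvaptan replicate 4 and -0.049 without dDAVP replicate 2. Aqp3 was -0.043 without tolvaptan replicate 3. Within replicates 3 and 4 Aqp3 was -0.0085, Aqp5 -0.011 and Aqp6 0.15. The causes were not tested. With a maximum TPM above 10, only Aqp2 and Aqp5 could be fitted.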
